A study of Mus musculus with 11 samples.

Results

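The core of the cGAS-STING pathway was followed through 8 genes, taken by name from the 26283 genes of the deposited tables: *Mb21d1*, which encodes cGAS, *Tmem173*, which encodes STING, *Tbk1*, *Ikbke*, *Trex1*, *Enpp1*, *Banf1* and *G3bp1*. Each of the 8 names had a row, and 8 of 8 passed the filter on low counts. RNA was sequenced in bulk from 11 mammary tumors of 18-week-old C57BL/6 mice that carried the MMTV-PyMT transgene, which expresses polyomavirus middle T antigen in the mammary gland, together with MMTV-Cre. The 6 PyMT *Pcbp1*–/– tumors came from *Pcbp1*(fl/fl) mice and the 5 PyMT *Pcbp1*+/+ tumors from *Pcbp1*(wt/wt) mice, so that the oncogene and Cre were present in both groups. The MMTV promoter drives Cre in mammary epithelial cells, and the study describes the deletion as selective for them. Each sample also holds stromal, vascular and immune cells, and which cells kept the gene cannot be read from bulk RNA. The labels number the tumors without stating whether they came from separate animals, and p-values therefore measure the spread between these tumors.

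Total estimated counts were 11708900, 13334600, 11239900, 13674700, 14092200 and 12937000 in PyMT *Pcbp1*–/– replicates 1 to 6. They were 10945800, 10543200, 11411800, 10975700 and 11198200 in PyMT *Pcbp1*+/+ replicates 1 to 5. Levels are given as deposited CPM, in which counts are scaled to the total of the tumor, and differences as log2 fold changes of PyMT *Pcbp1*–/– over PyMT *Pcbp1*+/+ tumors from edgeR, with the adjusted p over the 19232 genes tested. A gene was called at an adjusted p under 0.05. The labels place the 11 tumors in a single batch.

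cGAS binds DNA that has reached the cytosol and makes the cyclic dinucleotide cGAMP, which binds STING on the endoplasmic reticulum. STING then moves to the Golgi and recruits the kinases TBK1 and IKK-epsilon (*Ikbke*), which activate transcription factors for type I interferons and, through them, interferon-stimulated genes. The signal is held back by TREX1, which digests DNA, by BAF (*Banf1*), which coats DNA and keeps cGAS off it, and by ENPP1, which hydrolyzes cGAMP outside cells, whereas G3BP1 assists the binding of DNA by cGAS. In mammary tumors, DNA from missegregated chromosomes can engage this pathway. Because PCBP1 was studied as a protein that enhances cGAS sensing, the comparison asked whether transcripts of the sensing machinery itself differed when *Pcbp1* was lost.

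The targeted gene was low in each tumor labelled as deleted. *Pcbp1* (ENSMUSG00000051695.6, GRCm38 chromosome 6, 86524492 to 86526321, minus strand) had a lowest value of 15.4 CPM, a median of 20.9 CPM and a highest value of 33.6 CPM in PyMT *Pcbp1*–/– tumors. The 5 PyMT *Pcbp1*+/+ tumors had 268, 271, 225, 220 and 259 CPM, so the groups lay far apart. The log2 fold change was -3.43 (SE 0.19, adjusted p = 4.72e-06, edgeR). An annotated antisense gene, RP23-20K24.5, overlaps 75 bases at the start of *Pcbp1* and was itself lower (0.949 against 7.82 CPM, log2 fold change -3.05, SE 0.41, adjusted p = 0.0035, edgeR), and reads in that stretch cannot be assigned because the use of strand in the counting is not given in the sources used here.

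Among the core genes, edgeR called *Trex1* lower in PyMT *Pcbp1*–/– tumors and none higher. With edgeR, 1 of 8 was called lower, against 1.66% of all genes tested, and 0 of 8 higher, against 0.608% of all genes tested. At an unadjusted p under 0.05, 2 of 8 passed, *Trex1* and *Banf1*, against 18.7% of all genes tested. DESeq2 called 1 of 8 lower and 0 higher, against 3.09% and 2.12% of all genes it tested. With limma-voom 1 was lower and 1, *Banf1*, higher, against 6.19% and 5.03%. Deposited CPM did not overlap between the groups for *Trex1* alone, which was below, whereas 2.02% of all genes tested lay below and 1.27% above without overlap. Of the 8 log2 fold changes, 4 were below 0 and 4 above, with a median of -0.07 (all genes tested, -0.000123). In bulk tumors, fewer cells of a type and less RNA per cell cannot be told apart, which holds for the core genes and the other genes that were not themselves deleted.

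**Figure D1:**
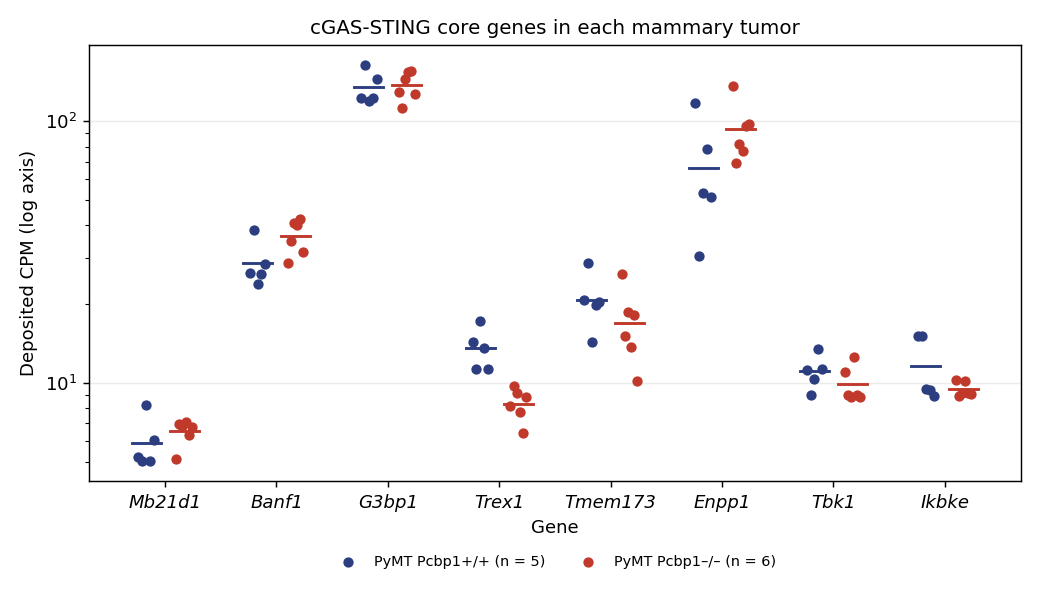
Deposited CPM on a log axis for the 8 core genes, with a point for each of 5 PyMT *Pcbp1*+/+ tumors (blue) and 6 PyMT *Pcbp1*–/– tumors (red) and a line at each group mean. The *Trex1* points do not overlap, with 9.72 CPM as the highest PyMT *Pcbp1*–/– value and 11.3 CPM as the lowest PyMT *Pcbp1*+/+ value, and the points of the other genes do.

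The sensor itself was near the same level in both groups. *Mb21d1* (ENSMUSG00000032344.17, chromosome 9, 78430526 to 78443237, minus strand) had 5.13 CPM at the lowest, 6.83 CPM at the median and 7.09 CPM at the highest in PyMT *Pcbp1*–/– tumors. The PyMT *Pcbp1*+/+ tumors had 5.21, 5.03, 8.24, 5.01 and 6.07 CPM. The highest and the lowest of the 11 values were both PyMT *Pcbp1*+/+ tumors, replicates 3 and 4, so the groups overlapped fully. Means were 6.53 ± 0.736 CPM (SD, n = 6) against 5.91 ± 1.37 CPM (SD, n = 5). For cGAS, the log2 fold change was 0.13 (SE 0.18, 95% interval -0.26 to 0.52, adjusted p = 0.743, edgeR). With each tumor left out it ranged from 0.06 to 0.32, highest without PyMT *Pcbp1*+/+ replicate 3 (adjusted p = 0.319, edgeR). With between 53.0 and 97.0 counts per tumor, this gene was thinly covered, and the interval spans differences in both directions.

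*Banf1* encodes the small chromatin protein that competes with cGAS for DNA. *Banf1* (ENSMUSG00000024844.14, chromosome 19, 5364641 to 5366645, minus strand) had 28.8, 37.5 and 42.2 CPM as the lowest, median and highest PyMT *Pcbp1*–/– values. Values in PyMT *Pcbp1*+/+ tumors were 26.3, 38.3, 23.8, 26.2 and 28.4 CPM. All but replicate 2 of the PyMT *Pcbp1*+/+ tumors lay below the lowest PyMT *Pcbp1*–/– value. The difference of 0.35 on the log2 scale (SE 0.14, 95% interval 0.04 to 0.66) did not pass the adjustment (adjusted p = 0.219, edgeR). With limma-voom and sample quality weights it was 0.53 (adjusted p = 0.0168), and the adjusted p ranged from 0.0168 to 0.246 over the settings other than leaving out a tumor.

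*G3bp1*, the stress granule protein that assists cGAS, was the core gene with the smallest difference. *G3bp1* (ENSMUSG00000018583.5, chromosome 11, 55469685 to 55504838, plus strand) ranged from 113 to 155 CPM with a median of 137 CPM in PyMT *Pcbp1*–/– tumors. PyMT *Pcbp1*+/+ tumors held 123, 164, 119, 123 and 145 CPM, a range that contained most of the other group. This gave a log2 fold change of 0.03 (SE 0.12, 95% interval -0.24 to 0.30, adjusted p = 0.934, edgeR), and its sign turned in 4 of the 11 fits that left out a tumor.

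*Trex1* (ENSMUSG00000049734.9, chromosome 9, 109057933 to 109059734, minus strand), the exonuclease that removes cytosolic DNA, had 6.46 CPM as its lowest, 8.49 CPM as its median and 9.72 CPM as its highest PyMT *Pcbp1*–/– value. In PyMT *Pcbp1*+/+ tumors it had 14.4, 11.3, 17.3, 13.5 and 11.3 CPM. Each of the 6 PyMT *Pcbp1*–/– tumors was thus below each of the 5 PyMT *Pcbp1*+/+ tumors, among which replicates 2 and 5 were lowest and replicate 3 highest. Mean levels were 8.34 ± 1.15 CPM (SD, n = 6) against 13.6 ± 2.48 CPM (SD, n = 5), a 1.63-fold lower fitted level in PyMT *Pcbp1*–/– tumors. This corresponds to a log2 fold change of -0.71 (SE 0.15, 95% interval -1.03 to -0.39, adjusted p = 0.0301, edgeR). The call lay close to the threshold: it was lost when PyMT *Pcbp1*–/– replicate 1, 3, 4, 5 or 6 or PyMT *Pcbp1*+/+ replicate 1, 3 or 4 was left out, with an adjusted p of 0.0516 to 0.0711 (edgeR) and a log2 fold change between -0.73 and -0.57. It was also lost in a fit of replicates 1 to 5 that had the replicate number as a block and left out PyMT *Pcbp1*–/– replicate 6 (the block fit, -0.72, adjusted p = 0.0729, edgeR).

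*Trex1* values are also uncertain because of a neighbor. The whole of *Trex1*, 1802 bases, lies within the annotated span of *Atrip* on the same strand (chromosome 9, 109057933 to 109074124), a gene of the DNA damage checkpoint. The *Trex1* counts deviated from whole numbers by more than 0.01 in 10 of 11 tumors. *Atrip* had 17.03 to 23.8 CPM in PyMT *Pcbp1*–/– tumors and 26.7, 28.7, 24.4, 18.98 and 20.5 CPM in PyMT *Pcbp1*+/+ tumors, ranges that overlapped. Its log2 fold change was -0.27 (SE 0.13, adjusted p = 0.272, edgeR). When the counts of both genes were summed, in a fit chosen after the data were seen, the log2 fold change was -0.42 (SE 0.11, adjusted p = 0.0736, edgeR) and no longer called. How the division of reads between the genes bears on the *Trex1* difference was not tested.

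The adaptor and the cGAMP hydrolase varied widely within both groups. *Tmem173* (ENSMUSG00000024349.9, chromosome 18, 35733678 to 35740554, minus strand) had 10.1, 16.7 and 26.1 CPM as the lowest, median and highest PyMT *Pcbp1*–/– values. The PyMT *Pcbp1*+/+ tumors had 20.8, 28.6, 14.3, 19.9 and 20.4 CPM. PyMT *Pcbp1*–/– replicate 1 and PyMT *Pcbp1*+/+ replicate 2 were highest, and the groups overlapped over most of their range. For STING, the log2 fold change was -0.29 (SE 0.22, 95% interval -0.76 to 0.18, adjusted p = 0.499, edgeR).

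*Enpp1* (ENSMUSG00000037370.13, chromosome 10, 24637914 to 24712159, minus strand) had 69.3, 89.0 and 137 CPM as its lowest, median and highest PyMT *Pcbp1*–/– values. In PyMT *Pcbp1*+/+ tumors it had 117, 30.6, 53.3, 78.3 and 51.5 CPM, the widest relative spread of a core gene. In 3 of these 5 tumors, replicates 2, 3 and 5, *Enpp1* was below each PyMT *Pcbp1*–/– tumor, and in replicates 1 and 4 it was not. *Enpp1* had a log2 fold change of 0.51 (SE 0.27, 95% interval -0.08 to 1.10, adjusted p = 0.334, edgeR).

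Both kinases had small differences with negative signs. *Tbk1* (ENSMUSG00000020115.3, chromosome 10, 121546455 to 121586787, minus strand) had 8.81, 9.01 and 12.6 CPM as the lowest, median and highest PyMT *Pcbp1*–/– values. The PyMT *Pcbp1*+/+ tumors had 11.2, 9.01, 10.3, 13.5 and 11.3 CPM. Replicate 4 was highest in both groups, and the ranges overlapped almost entirely (log2 fold change -0.17, SE 0.13, adjusted p = 0.540, edgeR).

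*Ikbke* (ENSMUSG00000042349.13, chromosome 1, 131254343 to 131279606, minus strand) had 8.92, 9.16 and 10.3 CPM as the lowest, median and highest PyMT *Pcbp1*–/– values. In PyMT *Pcbp1*+/+ tumors it had 15.1, 15.1, 9.46, 9.39 and 8.93 CPM. Replicates 1 and 2 of the PyMT *Pcbp1*+/+ group stood above the other 9 tumors, which lay between 8.92 and 10.3 CPM. Its log2 fold change was -0.28 (SE 0.15, 95% interval -0.60 to 0.03, adjusted p = 0.315, edgeR). A pair of antisense genes annotated within *Ikbke* had means under 0.5 CPM in both groups.

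**Figure D2:**
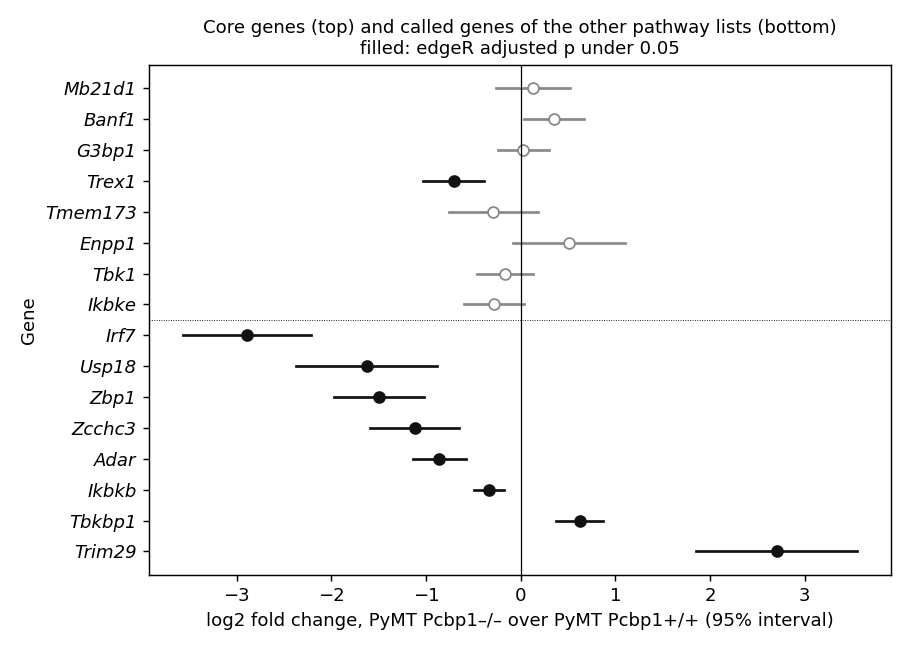
Log2 fold change of PyMT *Pcbp1*–/– over PyMT *Pcbp1*+/+ tumors with its 95% interval from edgeR, for the 8 core genes above the dotted line and for the 8 called genes of the other pathway lists below it. Filled points passed an adjusted p of 0.05; *Trex1* is the filled point among the core genes at -0.71, and *Irf7* at -2.89 and *Trim29* at 2.70 lie farthest from 0.

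Ratios within a tumor do not depend on how the library is scaled, and 4 were compared as log2 ratios of counts with 0.5 added. The ratio of *Mb21d1* to *Trex1*, the sensor against the nuclease that removes its ligand, was -0.67, -0.48, -0.41, -0.13, -0.03 and -0.37 in PyMT *Pcbp1*–/– replicates 1 to 6. It was -1.46, -1.16, -1.06, -1.43 and -0.89 in PyMT *Pcbp1*+/+ replicates 1 to 5, so each PyMT *Pcbp1*–/– tumor lay above each PyMT *Pcbp1*+/+ tumor. The means differed by 0.85 (-0.35 ± 0.23, SD, n = 6, against -1.20 ± 0.24, SD, n = 5; p = 0.00216 from the exact permutation of tumors, two-sided, which is the lowest value 462 arrangements allow, and 0.00866 after adjustment over 4 ratios). This ratio contains the *Trex1* counts, with the same uncertainty from *Atrip*. Because *Mb21d1* was near the same level in both groups (log2 fold change 0.13), the ratio largely repeats the *Trex1* difference (-0.71). It is therefore no independent support for that difference.

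The other 3 ratios overlapped between the groups. The paralogous kinases *Ikbke* and *Tbk1* had nearly equal counts, with a log2 ratio of -0.05 ± 0.14 (SD, n = 6) against 0.03 ± 0.53 (SD, n = 5) (p = 0.732 from the exact two-sided permutation, 0.732 adjusted). PyMT *Pcbp1*–/– tumors stayed between -0.31 and 0.06, while PyMT *Pcbp1*+/+ tumors spread from -0.52 to 0.74. The log2 ratio of *G3bp1* to its paralog *G3bp2* was 0.40 ± 0.23 (SD, n = 6) against 0.53 ± 0.38 (SD, n = 5) (p = 0.498 from the exact two-sided permutation, 0.664 adjusted). The log2 ratio of *Tmem173* to *Mb21d1*, adaptor to sensor, was 1.32 ± 0.60 (SD, n = 6) against 1.80 ± 0.63 (SD, n = 5) (p = 0.232 from the exact two-sided permutation, 0.463 adjusted).

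**Figure D3:**
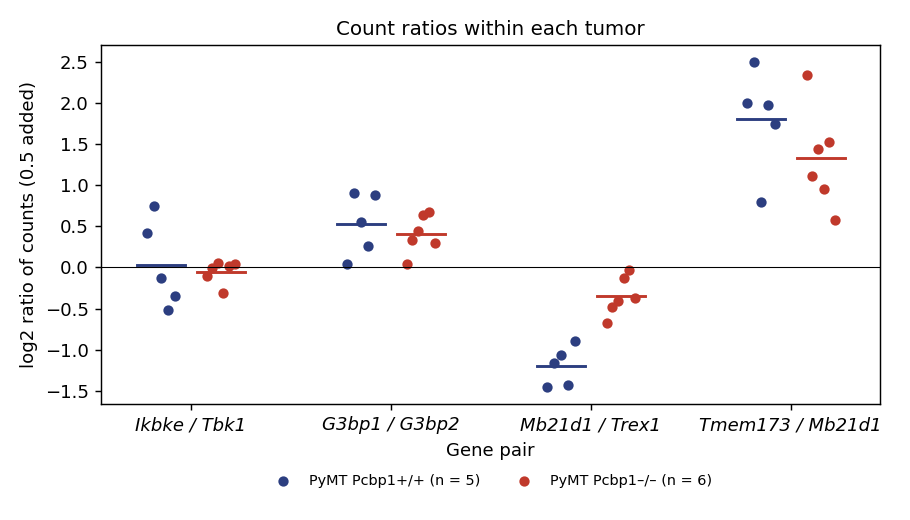
Log2 ratio of counts within each tumor, with 0.5 added to both counts, for 4 gene pairs, with a point per tumor (blue, 5 PyMT *Pcbp1*+/+; red, 6 PyMT *Pcbp1*–/–) and a line at each group mean. The *Mb21d1* to *Trex1* points do not overlap, at -0.67 or above in PyMT *Pcbp1*–/– tumors and at -0.89 or below in PyMT *Pcbp1*+/+ tumors.

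Levels between the core genes were compared as CPM per kb of exonic length, averaged over the 11 tumors. *G3bp1* was highest at 13.4 ± 1.69 CPM per kb (SD, n = 11), followed by *Banf1* at 11.8 ± 2.41, *Trex1* at 9.34 ± 2.83, *Enpp1* at 7.82 ± 2.94 and *Tmem173* at 5.87 ± 1.69 CPM per kb. *Tbk1* at 1.84 ± 0.291, *Mb21d1* at 1.20 ± 0.204 and *Ikbke* at 1.00 ± 0.225 CPM per kb were lowest. The only neighbors in this order whose ranges over tumors did not overlap were *Tmem173*, with at least 3.18 CPM per kb, and *Tbk1*, with at most 2.38 CPM per kb. With the length of the longest coding transcript, *Enpp1* (11.9 CPM per kb) moved above *Trex1* (9.88) and *Ikbke* (2.82) above *Mb21d1* (1.22). The order of means also differed by genotype. In PyMT *Pcbp1*+/+ tumors *Trex1* (11.8 ± 2.16 CPM per kb, SD, n = 5) was above *Banf1* (10.3 ± 2.04), and *Tmem173* (6.52 ± 1.61) above *Enpp1* (6.40 ± 3.205). Both differences were smaller than these SDs. In PyMT *Pcbp1*–/– tumors *Enpp1* (8.998 ± 2.32, SD, n = 6) was above *Trex1* (7.27 ± 1.004). The *Trex1* levels carry the uncertainty from *Atrip*. The sensor and both kinases formed the low end of the order with either length.

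Over the 11 tumors, the genes whose log2 levels were most like those of *Mb21d1* were RP24-173G12.4, *Eif3j2* and *Vps16*, with root mean square differences of 0.125, 0.134 and 0.146 after each gene was centered on its own mean. *Mb21d1* itself deviated from its mean by 0.257 on that scale. For *Tmem173*, which deviated by 0.382, they were *Notch4* (0.192), *Cmip* (0.197) and RP24-179I4.2 (0.205). These are descriptions over 18694 genes with a mean of at least 1 CPM. *Mb21d1* had between 53.0 and 97.0 counts per tumor, and how far counting noise bears on these differences was not tested.

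The other genes of the pathway were taken from 7 lists with 130 names, of which 109 were in the tables and 105 were tested. With edgeR, 6 were called lower and 2 higher, which is to be read beside the 1.66% and 0.608% of all genes tested. The median log2 fold change over these 105 genes was -0.03, with 58 below 0 and 47 above. DESeq2 called 9 lower and 4 higher (all genes, 3.09% and 2.12%), and limma-voom 15 lower and 6 higher (all genes, 6.19% and 5.03%). The counts of each single list below are to be read beside the same shares. For an unadjusted p under 0.05, the share of all genes tested was 18.7% in either direction. The edgeR counts depended on single tumors: with each left out in turn, 3 to 8 pathway genes were lower and 1 to 3 higher, while over all genes 144 to 389 were lower and 41 to 187 higher.

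Among 14 genes that act on self nucleic acids or on their containment in the nucleus and mitochondria, 13 were tested and 1, *Adar*, was called lower, with 0 higher (unadjusted p under 0.05, 3 lower and 3 higher; DESeq2, 1 lower and 0 higher; limma-voom, 3 lower and 2 higher). *Adar* (chromosome 3, 89715022 to 89753446), which edits double-stranded RNA and is itself induced by interferon, had 52.3, 59.6 and 68.8 CPM as its lowest, median and highest PyMT *Pcbp1*–/– values and 108, 121, 123, 117 and 72.4 CPM in PyMT *Pcbp1*+/+ tumors. PyMT *Pcbp1*+/+ replicate 5 lay close to the other group without overlapping it. The log2 fold change was -0.86 (SE 0.13, adjusted p = 0.00554, edgeR). *Adar* overlaps *Chrnb2* on the opposite strand over 7252 bases, and *Chrnb2* had a log2 fold change of -0.93 (SE 0.16, adjusted p = 0.0122, edgeR), so that shared reads leave both values uncertain. The most abundant gene of this list was *Samhd1*, which degrades nucleotides, at 70.9 ± 15.3 CPM (SD, n = 6) against 97.6 ± 15.6 CPM (SD, n = 5) (adjusted p = 0.131, edgeR; with limma-voom, lower at an adjusted p of 0.0213).

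Of 23 cofactors and modifiers of cGAS, 20 were tested, with 1 lower and 0 higher (unadjusted p under 0.05, 2 lower and 3 higher; DESeq2 and limma-voom, 2 lower and 1 higher each). The lower gene was *Zcchc3* (chromosome 2, 152411955 to 152415027), a zinc finger protein that assists DNA binding by cGAS. It had 4.12, 6.07 and 8.55 CPM as its lowest, median and highest PyMT *Pcbp1*–/– values and 16.9, 15.3, 12.4, 13.03 and 8.04 CPM in PyMT *Pcbp1*+/+ tumors. The groups overlapped only through PyMT *Pcbp1*+/+ replicate 5. The log2 fold change was -1.12 (SE 0.22, adjusted p = 0.0218, edgeR), and without PyMT *Pcbp1*+/+ replicate 1, 3 or 4 the adjusted p was 0.0559, 0.0534 and 0.0514. *Zcchc3* was not called in the block fit of replicates 1 to 5 either (-1.17, adjusted p = 0.054, edgeR). The most abundant gene was *Nono*, a nuclear partner of cGAS, at 149 ± 8.72 CPM (SD, n = 6) against 126 ± 11.1 CPM (SD, n = 5); its groups did not overlap, with PyMT *Pcbp1*–/– above (log2 fold change 0.24, SE 0.0732, adjusted p = 0.104, edgeR). *Nono* was called higher with DESeq2 (0.25, adjusted p = 0.0134) and with limma-voom (0.27, adjusted p = 0.0212), and over the settings other than leaving out a tumor its adjusted p was 0.0134 to 0.184.

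Of 29 genes for STING trafficking and modification, 28 were tested, with 1 lower and 1 higher (unadjusted p under 0.05, 4 lower and 1 higher; DESeq2, 2 lower and 1 higher; limma-voom, 4 lower and 1 higher). *Trim29* (chromosome 9, 43310848 to 43336115), a ubiquitin ligase for STING that is also a basal epithelial gene, rose. It had 34.3, 37.1 and 43.5 CPM as its lowest, median and highest PyMT *Pcbp1*–/– values and 11.5, 2.94, 5.52, 8.84 and 1.07 CPM in PyMT *Pcbp1*+/+ tumors. The groups were far apart, with a log2 fold change of 2.70 (SE 0.39, adjusted p = 0.00481, edgeR). *Usp18*, a deubiquitinase induced by interferon, had 1.80 to 4.33 CPM in PyMT *Pcbp1*–/– tumors and 11.9, 8.91, 14.02, 11.2 and 2.68 CPM in PyMT *Pcbp1*+/+ tumors, again overlapping only through replicate 5. Its log2 fold change was -1.63 (SE 0.34, adjusted p = 0.0309, edgeR). Leaving out PyMT *Pcbp1*–/– replicate 1, 3, 4 or 5 or PyMT *Pcbp1*+/+ replicate 1, 3 or 4 ended the call, with an adjusted p of 0.0603 to 0.0809 (edgeR), and it was not made in the block fit (-1.64, adjusted p = 0.0646, edgeR). *Surf4*, the most abundant gene of the list, which returns STING from the Golgi, had 242 ± 31.4 CPM (SD, n = 6) against 280 ± 30.1 CPM (SD, n = 5) (adjusted p = 0.297, edgeR).

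Of 12 genes for transport and breakdown of cGAMP, 11 were tested and 0 were called with edgeR, with 1 lower and 1 higher at an unadjusted p under 0.05, 1 higher with DESeq2, and 1 lower and 1 higher with limma-voom. The most abundant was the gap junction gene *Gja1*, with 209 ± 59.2 CPM (SD, n = 6) against 276 ± 359 CPM (SD, n = 5). PyMT *Pcbp1*+/+ replicate 2 had 916 CPM of it and no other PyMT *Pcbp1*+/+ tumor more than 142 CPM. The log2 fold change was -0.39 (SE 0.56, adjusted p = 0.746, edgeR), and without that tumor it was 0.86 (adjusted p = 0.0465, edgeR), so that its sign rested on a single tumor.

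The 18 adaptors and effectors of the kinases were all tested, with 2 lower and 1 higher (unadjusted p under 0.05, 5 lower and 1 higher; DESeq2 and limma-voom, 3 lower and 1 higher each). *Irf7* (chromosome 7, 141262706 to 141266481), an interferon regulatory factor that is itself interferon-induced, had 11.4, 14.4 and 22.3 CPM as its lowest, median and highest PyMT *Pcbp1*–/– values. The PyMT *Pcbp1*+/+ tumors had 125, 114, 155, 158 and 40.0 CPM, each above the other group although replicate 5 was far below its own. The log2 fold change was -2.89 (SE 0.31, adjusted p = 0.00194, edgeR). *Irf3*, the factor that TBK1 activates directly, had 34.0 ± 4.42 CPM (SD, n = 6) against 35.8 ± 3.46 CPM (SD, n = 5), with a log2 fold change of -0.07 (SE 0.10, adjusted p = 0.727, edgeR); it was picked out after its values were seen.

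*Tbkbp1*, an adaptor that binds TBK1, was higher. It had 10.9, 14.3 and 15.1 CPM as its lowest, median and highest PyMT *Pcbp1*–/– values and 8.68, 8.44, 8.76, 9.29 and 8.57 CPM in PyMT *Pcbp1*+/+ tumors, with no overlap (log2 fold change 0.62, SE 0.12, adjusted p = 0.0181, edgeR). Without PyMT *Pcbp1*–/– replicate 3 or PyMT *Pcbp1*+/+ replicate 1 or 4, its adjusted p was 0.0506, 0.0503 and 0.0505, and in the block fit 0.0745 (log2 fold change 0.57, edgeR). *Ikbkb*, the kinase of the NF-kB inhibitor, had 72.1 to 79.9 CPM in PyMT *Pcbp1*–/– tumors and 95.02, 90.5, 92.6, 106 and 98.15 CPM in PyMT *Pcbp1*+/+ tumors, a small difference without overlap (log2 fold change -0.34, SE 0.0727, adjusted p = 0.0325, edgeR). That call ended in 8 of the 11 fits that left out a tumor, those without PyMT *Pcbp1*–/– replicate 1, 3, 4, 5 or 6 or PyMT *Pcbp1*+/+ replicate 3, 4 or 5 (adjusted p from 0.0517 to 0.0926, edgeR), and in the block fit (-0.35, adjusted p = 0.108, edgeR). *Tab2*, an adaptor of the kinase TAK1 and the most abundant gene here, had 150 ± 20.7 CPM (SD, n = 6) against 152 ± 5.32 CPM (SD, n = 5) (adjusted p = 0.907, edgeR).

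Among 14 other sensors of cytosolic DNA, 14 were tested and 1 was called lower, with 0 higher (unadjusted p under 0.05, 2 lower and 0 higher; DESeq2, 1 lower and 0 higher; limma-voom, 2 lower and 0 higher). *Zbp1* (chromosome 2, 173206612 to 173218923), a sensor of Z-form nucleic acids, had 6.58, 8.48 and 10.2 CPM as its lowest, median and highest PyMT *Pcbp1*–/– values and 25.5, 22.9, 30.8, 29.3 and 11.1 CPM in PyMT *Pcbp1*+/+ tumors. Replicate 5 was again the lowest PyMT *Pcbp1*+/+ tumor, just above the other group (log2 fold change -1.49, SE 0.22, adjusted p = 0.00504, edgeR). In the block fit of replicates 1 to 5, *Zbp1* was not called (-1.50, adjusted p = 0.0532, edgeR). *Hnrnpa2b1*, the most abundant, was at 264 ± 11.2 CPM (SD, n = 6) against 264 ± 14.8 CPM (SD, n = 5) (adjusted p = 0.998, edgeR). Of 20 interferon genes, 2 were in the tables and 1, *Ifnk*, was tested and not called by any of the 3 tools, at 1.40 ± 0.541 CPM (SD, n = 6) against 1.56 ± 0.392 CPM (SD, n = 5) (adjusted p = 0.798, edgeR). No row of the tables had a total under 10 counts, and *Ifnb1* was among the genes without a row. Its level therefore cannot be read here, whereas the study reports it as lower in PyMT *Pcbp1*–/– tumors by RT-qPCR.

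Downstream of the pathway, 10 interferon-stimulated genes were examined. Of these, 8 were called lower with edgeR, 9 with DESeq2 and 10 with limma-voom, beside 1.66%, 3.09% and 6.19% of all genes tested. The study shows genes of this kind from the same tumors, so these counts are no independent support. Whether the levels of these genes follow from cGAS-STING activity was not tested. The summed CPM of the 10 genes was 109, 55.5, 81.2, 67.9, 72.5 and 112 in PyMT *Pcbp1*–/– tumors and 484, 418, 671, 471 and 139 in PyMT *Pcbp1*+/+ tumors. PyMT *Pcbp1*+/+ replicate 5 thus had the lowest sum of its group, as it had the lowest *Irf7*, *Zbp1*, *Usp18*, *Zcchc3* and *Adar*. Of the 8 core genes, *Ikbke*, at 8.93 CPM, was lowest in that tumor and the other 7 were inside the range of the group. *Trex1* was inside it only narrowly, at 11.32 CPM against 11.29 CPM in replicate 2. *Oasl2* was the most abundant, at 18.2 ± 5.13 CPM (SD, n = 6) against 108 ± 46.7 CPM (SD, n = 5) (log2 fold change -2.56, SE 0.34, adjusted p = 0.00343, edgeR). *Isg15*, *Ifit1*, *Ifit3*, *Rsad2*, *Oas2*, *Mx1* and *Bst2* had log2 fold changes from -3.05 to -1.70, and *Bst2*, at -1.70, was not called in the block fit (-1.685, adjusted p = 0.0529, edgeR). *Cxcl10*, a chemokine gene (log2 fold change -1.24, SE 0.41, adjusted p = 0.136, edgeR), was not called, and it was without PyMT *Pcbp1*+/+ replicate 5 (adjusted p = 0.0296, edgeR) and with limma-voom (adjusted p = 0.048).

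Cell type markers were examined because the core genes are active in immune and stromal cells as well as in the epithelium. In 10 of 11 marker lists edgeR called 0 genes, with 5 of 10 T cell, 2 of 6 NK cell and 5 of 8 dendritic cell genes passing the filter, and in the B cell list no gene passed it, so none was tested. At an unadjusted p under 0.05 there were 2 higher macrophage genes, 6 higher dividing cell genes, 1 lower dendritic cell gene and 1 lower basal epithelial gene, to be read beside the 18.7% of all genes tested that passed in either direction. DESeq2 called 1 macrophage and 4 dividing cell genes higher, against 2.12% of all genes it tested. With limma-voom, 1 macrophage and 7 dividing cell genes were higher and 1 dendritic cell gene lower, against 5.03% and 6.19% of all genes tested. For edgeR, the shares of all genes tested were 1.66% lower and 0.608% higher. The luminal epithelial list, which marks the labelled tissue, summed to 2168 ± 432 CPM (SD, n = 6) against 2158 ± 435 CPM (SD, n = 5), led by *Cdh1* at a mean of 321 CPM, and the basal list to 463 ± 161 CPM (SD, n = 6) against 507 ± 385 CPM (SD, n = 5), led by *Mylk* at 138 CPM. The basal sum was 1161 CPM in PyMT *Pcbp1*+/+ replicate 1 and at most 429 CPM in the other PyMT *Pcbp1*+/+ tumors.

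The macrophage list, of which 9 of 10 genes had a log2 fold change above 0, summed to 616, 443, 467, 324, 375 and 498 CPM in PyMT *Pcbp1*–/– replicates 1 to 6. It summed to 377, 229, 450, 321 and 201 CPM in PyMT *Pcbp1*+/+ replicates 1 to 5. These sums overlapped, and the most abundant gene was *Lyz2*, which other myeloid cells also express, at 193 ± 36.9 CPM (SD, n = 6) against 94.4 ± 41.3 CPM (SD, n = 5) (adjusted p = 0.0657, edgeR; called higher with DESeq2, 0.00652, and limma-voom, 0.0411). The dividing cell list, with 10 of 10 above 0, summed to 457, 699, 709, 660, 663 and 637 CPM and to 339, 528, 431, 530 and 468 CPM. It overlapped through PyMT *Pcbp1*–/– replicate 1 and was led by *Mki67* at 449 ± 67.5 CPM (SD, n = 6) against 320 ± 52.9 CPM (SD, n = 5) (adjusted p = 0.101, edgeR; called higher with DESeq2, 0.0265, and limma-voom, 0.0283).

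The sums of the remaining lists also overlapped between the groups. Log2 fold changes were above 0 for 7 of 8 fibroblast genes and below 0 for 8 of 8 endothelial, 6 of 6 adipocyte, 3 of 5 dendritic cell and 4 of 5 T cell genes, with medians of 0.235, -0.22, -0.72, -0.38 and -0.12, against 0.245 for the macrophage and 0.45 for the dividing cell list. Fibroblast genes summed to 686 ± 194 and 567.7 ± 162 CPM, led by *Col1a1* at 179 CPM, and endothelial genes to 76.0 ± 17.3 and 89.4 ± 17.1 CPM, led by *Cdh5* at 23.4 CPM (SD, n = 6 and n = 5). Adipocyte genes summed to 12.1 ± 11.998 and 18.8 ± 23.1 CPM, led by *Fabp4* at 4.49 CPM, with *Adipoq* and *Cidec* at 0 in at least 1 tumor. PyMT *Pcbp1*+/+ replicate 3 held 59.8 CPM of this sum and the other PyMT *Pcbp1*+/+ tumors 3.70 to 12.3 CPM, so its direction rested on that tumor; without it the log2 fold change of *Fabp4* was 0.58. Dendritic cell genes summed to 22.04 ± 7.16 and 23.7 ± 5.74 CPM, led by *Zbtb46* at 12.9 CPM, with *Cd209a* at 0 in at least 1 tumor. Lymphocyte markers were scarce. T cell genes summed to 7.99 ± 2.13 and 9.05 ± 3.01 CPM, led by *Cd8a* at 2.35 CPM, with *Cd3d*, *Cd8b1* and *Cd28* at 0 in at least 1 tumor. NK cell genes summed to 4.599 ± 2.26 and 4.65 ± 2.46 CPM, led by *Klrk1* at 1.47 CPM, with *Ncr1* and *Gzma* at 0 in at least 1 tumor, and 3 of 6 B cell genes to 2.05 ± 1.12 and 1.91 ± 0.883 CPM, led by *Cd22* at 0.901 CPM. The part of these lists in the differences of the core genes was not tested.

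Promoters were read because several called pathway genes are induced by interferon. In the RefSeq table for GRCm38.p6, which spans 250 bases before to 50 after each start, 7 of the 8 core genes had an entry, with 9 promoters in all and *Mb21d1* under its newer symbol *Cgas*; *Tmem173* was not analysed here. On both strands, 3 sets of letters were searched: the IRF core GAAANNGAA, the GAS TTCNNNGAA and the NF-kB letters GGGANTTCC, held by 8.56%, 8.3% and 1.68% of 32851 promoters. They do not overlap each other in the promoters printed here. None of the 9 promoters of the core genes held any of them, which says only that these letters are not in these windows. The promoter of the sensor, *Mb21d1*, at chr9:78443188-78443487 on the minus strand, is given 5′ to 3′ as an example without a match.
Mb21d1: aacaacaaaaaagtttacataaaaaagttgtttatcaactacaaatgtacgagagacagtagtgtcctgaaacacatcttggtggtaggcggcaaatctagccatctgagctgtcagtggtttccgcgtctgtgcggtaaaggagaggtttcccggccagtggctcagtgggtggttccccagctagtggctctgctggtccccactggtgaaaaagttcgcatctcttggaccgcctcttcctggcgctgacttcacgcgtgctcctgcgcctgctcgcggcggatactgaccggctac
Of the called pathway genes, *Adar*, *Zcchc3*, *Tbkbp1* and *Irf7* had promoter entries, and *Ikbkb*, *Usp18*, *Zbp1* and *Trim29* did not. The *Irf7* promoter held no match. *Adar*, with 3 promoters, held 2 matches to the IRF core and 1 to the GAS in the one at chr3:89730468-89730767 on the plus strand. The *Zcchc3* promoter at chr2:152414995-152415294 on the minus strand held 1 match to the GAS at position -96 from the start. *Tbkbp1*, the higher gene, held 1 match to the IRF core in 1 of its 2 promoters, at position -50. The promoters of the lower genes with a match follow, with the matches in capitals, as descriptions of sequence and not of binding.
Adar: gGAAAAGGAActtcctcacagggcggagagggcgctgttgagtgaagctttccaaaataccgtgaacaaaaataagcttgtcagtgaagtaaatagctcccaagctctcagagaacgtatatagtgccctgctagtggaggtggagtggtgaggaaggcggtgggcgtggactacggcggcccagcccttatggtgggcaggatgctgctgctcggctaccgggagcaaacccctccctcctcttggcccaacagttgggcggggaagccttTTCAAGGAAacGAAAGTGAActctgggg
Zcchc3: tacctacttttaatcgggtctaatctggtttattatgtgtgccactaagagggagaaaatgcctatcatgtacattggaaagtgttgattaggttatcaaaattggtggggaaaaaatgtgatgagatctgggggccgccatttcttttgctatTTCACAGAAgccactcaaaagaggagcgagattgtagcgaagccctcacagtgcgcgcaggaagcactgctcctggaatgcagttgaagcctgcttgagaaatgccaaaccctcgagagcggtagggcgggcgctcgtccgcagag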

How the data were processed

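RNA from 11 mammary tumors was extracted with Trizol, enriched for poly(A) RNA and sequenced from stranded libraries. Per the submitters' processing notes and the methods, FastQC, Bowtie2, GRCm38 and Partek were used; the counting method and the annotation version are not given in the sources used here. The authors deposited estimated counts per gene, not normalized, and CPM, each estimated count divided by its column sum. Computed here, counts were taken to whole numbers for edgeR 4.0.16 (R 4.3.3): TMM, the default filter on low counts, and the quasi-likelihood test (legacy method, not robust) with genotype as the term, with Benjamini-Hochberg adjustment over 19232 genes. Log2 fold changes, SE and ratios are from these fits or counts, and descriptions from Python 3.11.15. Deposited stop positions lie past the end, so ends are 1 base earlier. Where 2 rows share a name, the row with more counts was used.

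Exonic lengths were the union of exons in GENCODE vM39 (GRCm39), matched by Ensembl identifier for 8 of 8 core genes, without its coordinates. Likeness of pattern used log2(TMM-scaled CPM + 0.5). The members and lists were chosen with earlier results of these data known. Named genes were the core genes, *Pcbp1*, called genes and the most abundant gene of each of 7 pathway lists, 10 interferon-stimulated genes (of which 1 is not reported here by itself), the most abundant gene of each of 11 cell type lists, and the 3 genes nearest to *Mb21d1* and to *Tmem173*; *Irf3* and genes overlapping named ones were added later. Alternatives were DESeq2 1.42.0, limma-voom (limma 3.58.1) with sample quality weights, library size only, upper-quartile factors, no filter, at least 1 CPM in at least 5 tumors, protein-coding genes only, the replicate number as a block in replicates 1 to 5, each tumor left out, a pseudocount of 0.1 and transcript length; the sum of *Trex1* and *Atrip* was added after seeing the data. Of 4 forms of the quasi-likelihood fit (legacy or newer, robust or not), all run on these data, the one that gave the call counts of an earlier analysis was kept, and the other 3 were added as alternatives. The tests were tested on simulated data. Intervals cover the spread between tumors, and counts per tumor limit precision for low genes.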

Additional observations from a re-analysis of the deposited data

Results flagged for a closer look

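Single tumors that stood apart were sought among 122 sets, each the values of a gene, list sum or ratio within a genotype. There were 11 such values, where chance flags about 1 in 20 groups, here 6.1. None concerned a core gene. In PyMT *Pcbp1*+/+ replicate 5, *Adar* was lowest of its group at 72.4 CPM (nearest, 108 CPM), as was *Ifit1* at 21.6 CPM (nearest, 75.0 CPM). In PyMT *Pcbp1*–/– replicate 1, *Bst2* was highest at 6.92 CPM (nearest, 4.17 CPM) and *Fabp4* highest at 10.3 CPM (nearest, 4.25 CPM). In the same tumor, *Mki67* was lowest at 318 CPM (nearest, 457 CPM), and so was the summed dividing cell list at 457 CPM (nearest, 637 CPM).

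*Nono* was highest in PyMT *Pcbp1*–/– replicate 5 at 166 CPM (nearest, 150 CPM). *Gja1* was highest in PyMT *Pcbp1*+/+ replicate 2 at 916 CPM (nearest, 142 CPM). In PyMT *Pcbp1*+/+ replicate 3, *Fabp4* was highest at 19.5 CPM (nearest, 3.39 CPM), as was the summed adipocyte list at 59.8 CPM (nearest, 12.3 CPM). The summed basal epithelial list was highest in PyMT *Pcbp1*+/+ replicate 1 at 1161 CPM (nearest, 429 CPM).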

How the results depend on the processing

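*Pcbp1* kept its call in each of 22 alternatives, with log2 fold changes from -3.60 to -3.34. DESeq2 called 700 genes lower and 480 higher and limma-voom 1190 and 968, and both moved pathway genes, to 4 higher with DESeq2 and to 15 lower and 6 higher with limma-voom, which also called 1 core gene higher. The causes were not tested. The longest coding transcript gave 20.2, 16.7, 11.9, 3.07 and 2.82 CPM per kb for *G3bp1*, *Banf1*, *Enpp1*, *Tbk1* and *Ikbke*. Without a filter, *Ikbkb* had an adjusted p of 0.0592. The 3 other forms of the quasi-likelihood fit called 316 to 336 genes lower and 114 to 123 higher, with the same counts of core and pathway genes; *Trex1* had an adjusted p of at most 0.0307 (edgeR).

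The replicate numbers did not pair the tumors: deviations of same-numbered tumors correlated at 0.134, 0.0867, -0.079, -0.144 and 0.293, and replicates 2, 3 and 4 did not correlate best with their own number. With the replicate block, 118 genes were lower and 42 higher, 0 core genes lower, and 3 pathway genes lower and 1 higher. Of these 3, only *Irf7* and *Adar* were also called lower in the main fit. The difference in the *Mb21d1* to *Trex1* ratio was 0.86 (exact sign-flip test, adjusted p = 0.250), and with 5 differences this test cannot pass 0.05. *Trex1*, *Zbp1*, *Usp18*, *Ikbkb*, *Tbkbp1*, *Zcchc3* and *Bst2* were not called in the block fit, which also leaves out PyMT *Pcbp1*–/– replicate 6. Leaving out that tumor without the block gave 212 genes lower and 69 higher. In that fit 0 core genes were lower, and 6 pathway genes were lower and 2 higher. *Trex1* and *Ikbkb* were not called there either (adjusted p = 0.0516 and 0.0517, edgeR), whereas *Zbp1*, *Usp18*, *Tbkbp1*, *Zcchc3* and *Bst2* were.

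With each tumor left out, genes lower ranged from 144 to 389, genes higher from 41 to 187, core genes lower from 0 to 1, pathway genes lower from 3 to 8 and higher from 1 to 3. The sign turned in some of these fits for uncalled genes, with log2 fold changes from -0.0275 to 0.10 for *G3bp1*, -0.59 to 0.86 for *Gja1*, -0.0868 to 0.0166 for *Tab2*, -0.0197 to 0.0311 for *Hnrnpa2b1*, -0.39 to 0.0876 for *Cd8a*, -0.42 to 0.69 for *Klrk1*, -0.00247 to 0.24 for *Zbtb46*, -1.53 to 0.58 for *Fabp4*, -0.17 to 0.0139 for *Cdh1* and -0.0736 to 0.81 for *Mylk*. The *Ikbke* to *Tbk1* ratio ranged from -0.22 to 0.0913. Among core genes whose sign did not turn, log2 fold changes ranged from -0.44 to -0.15 for *Tmem173* and -0.25 to -0.11 for *Tbk1*. They ranged from -0.36 to -0.17 for *Ikbke* and 0.33 to 0.78 for *Enpp1*. Signs also turned with limma-voom for *Gja1* (0.72) and *Zbtb46* (-0.23), with the block for *Gja1* (0.47), *Tab2* (0.0124) and *Zbtb46* (-0.0543), with upper-quartile factors for *Hnrnpa2b1* (-0.00606) and with the 1 CPM filter for *Hnrnpa2b1* (-0.000354). DESeq2 gave no p for *Gja1*.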
